A study of Mus musculus with 6 samples.

Results

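The 504 circular RNA probes described here crossed the detection limit of the scanner software in myotubes alone. They are 3.54% of the 14236 circRNA probes of the Arraystar mouse circRNA design. They were chosen by a detection pattern, namely the flag for a signal well above background, set on each of the 3 myotube arrays and on none of the 3 myoblast arrays. The pattern compares the states itself, so every difference between states given for these probes is a description without a test. The name "detected only in myotubes" does not hold in a plain sense, because 339 of the 504 also carried the software's weaker flag, a positive and significant signal, on all 3 myoblast arrays, as did 29.6% of all 4832 circRNA probes below the limit on every myoblast array. They are therefore called here the probes above the limit in myotubes alone.

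RNA came from C2C12, an established mouse line of muscle precursor cells. The myoblast group was kept in high-glucose DMEM with 10% fetal bovine serum, and the myotube group was made by moving dense cultures to DMEM with 2% horse serum. Both groups were of the same line, penicillin and streptomycin were in the growth medium, and the study describes 3 independent experiments for each group. For how long the cells differentiated was not given in the sources used here.

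Labels could be checked on the array only weakly. Of 15 muscle differentiation genes looked up among its 50 gene probes, Hspb7, a chaperone of striated muscle, was the single one present. Its processed signal was 9.12, 9.78 and 15.5 in myoblasts and 71.5, 75.8 and 162 in myotubes. Of 7 genes of dividing myoblasts only E2f1, which drives genes for DNA replication, was present, at 11.2 to 12.7 in myoblasts and 11.4 to 12.4 in myotubes, and none of 10 genes of other cell types was.

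Circular RNAs are made when the splicing machinery joins the end of an exon back to the start of the same or an earlier exon. The ring has no free ends for exonucleases, so circRNAs tend to be long-lived, and many accumulate in cells that have stopped dividing. Muscle differentiation is a setting in which this is well known, since myoblasts leave the cell cycle as they fuse. Probes of this kind of array are designed against the back-splice junction, the stretch of sequence that the linear transcript lacks. Neither host genes nor sequences of the probes are in the files used here, and the probes are named by identifier.

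Detection on these arrays came down to a fixed signal. On every array the lowest background-subtracted signal with the flag lay between 5.00 and 5.01 scanner units, and the highest without it between 4.99 and 5.00. A value of 5 units is therefore called the limit. Array brightness differed, so the same 5 units stood at 13.7 to 16.6% of the 75th percentile of the processed signal on the myoblast arrays. On the arrays of myotubes 1, 2 and 3 they stood at 13.3%, 9.38% and 9.09%. A probe of the same rank could thus pass more easily on the arrays of myotubes 2 and 3.

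Most of the 504 probes were dim. Their median processed signal, an intensity after background subtraction and detrending, was 2.73, 2.84 and 2.33 on the myoblast arrays. It was 7.59, 9.29 and 10.6 on the myotube arrays. The upper quartile in myotubes was 10.9, 14.2 and 15.6, and the lower one on the array of myotube 3, the brightest, was 7.86. The highest values were 128, 226 and 217, all from 1 probe. Relative to the 75th percentile of its own array the median probe stood at 7.74 to 8.21% in myoblasts and at 17.4 to 20.2% in myotubes.

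Fold differences are given as bounds, since no myoblast array reached the limit. The bound is the mean scaled log2 signal in myotubes minus that in myoblasts, with each myoblast array entered at no less than its lowest signal among probes well above background. Scaling subtracted the 75th percentile of each array. The words "at least" refer to the myoblast level, which may be lower, and not to the choice of scaling or arrays. The median bound was at least 1.40-fold, with quartiles of 1.12 and 1.93, and for 55 probes the bound was under 1, so no fold is given for them. Without scaling between arrays the median bound was 2.03-fold. A bound of at least 2-fold was reached by 119 of the 504 (23.6%), beside 8.41% of the 9085 circRNA probes above the limit on all 3 myotube arrays, measured in the same way. At least 4-fold was reached by 33 probes (background 1.42%), at least 8-fold by 14 (background 0.319%) and at least 16-fold by 6 (background 0.143%). The rule used this contrast, so nothing is read from these shares.

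The probes were sorted into clear gains, probes near the limit and a group between. A clear gain had a bound of at least 2-fold, and its lowest net median signal in myotubes was at least 2 times its highest in myoblasts. The net median signal is the median pixel of the spot minus that of its local background, before any correction by the software. There were 105 clear gains (20.8% of the 504, background 5.38%), 111 probes between (22.0%) and 288 near the limit, with a bound under 1.5-fold (57.1%). A fold or bound under 1.5 was found for 80.3% of the 9085 background probes. Those include bright probes, so that share is not one of probes near the limit. Of the 119 probes with a bound of at least 2-fold, 14 missed the net median condition. The greatest bound among those 14 was 4.60-fold, for ASCRP4012942, which is named after its values were seen.

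The net median signals show the distance between these groups of probes. Clear gains had median net signals of 5, 5 and 4.5 units in myoblasts and 20, 24.5 and 26 in myotubes. Probes near the limit had 5 units on each myoblast array and 11, 10.5 and 11 in myotubes. In myoblasts the 2 groups of probes were thus alike on this measure. They differed there in processed signal, with medians of 2.16, 1.76 and 1.53 for clear gains and 2.75, 2.85 and 2.45 near the limit. That the net signals stood apart in myotubes follows from the classes, since clear gains were chosen partly by this measure. The condition used the net signals in myoblasts as well. Over all 504, the lowest myotube net signal was a median of 1.67 times the highest myoblast one. The ratio was under 2 for 324 probes and under 1 for 9, so for those 9 the uncorrected spot signals of the groups overlapped.

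ASCRP4010520 had the greatest bound and the brightest myotube signal of the set. Its processed signal was 1.09, 1.64 and 1.02 in myoblasts and 128, 226 and 217 in myotubes, at least 29.0-fold higher. Its net median signals were 4, 4 and 2 units against 124, 232 and 211.5, so the difference is as plain before correction as after it. No other member was brighter than 115 on the array of myotube 1, 156 on that of myotube 2 or 147 on that of myotube 3.

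The next 4 probes lay close together. ASCRP4009672 had 0.945, 0.990 and 1.81 in myoblasts and 115, 149 and 120.0 in myotubes, at least 19.9-fold higher. ASCRP4013638 had 1.78, 1.04 and 1.62 against 103, 143 and 136, at least 19.8-fold higher. In both, the myotube arrays differed among themselves by less than 1.5-fold while the groups were far apart. ASCRP4009384 had 2.68, 0.915 and 0.957 against 108, 133 and 127, at least 19.2-fold higher. ASCRP4008253 had 1.71, 0.954 and 0.972 against 76.5, 156 and 147, at least 18.9-fold higher. In ASCRP4008253 the array of myotube 1 was the low one before scaling, as it was for most of these probes.

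A further 3 probes passed 13-fold. ASCRP4011090 had 0.891, 2.90 and 3.55 in myoblasts and 80.7, 118 and 127 in myotubes, at least 16.7-fold higher. ASCRP4009673 had 1.01, 1.15 and 1.23 against 95.9, 118 and 93.7, at least 15.98-fold higher. ASCRP4013008 had 2.36, 0.920 and 1.22 against 47.0, 136 and 111, at least 14.0-fold higher. The last had the widest spread of the 12 probes with the greatest bounds, with an SD of 0.53 on the log2 scale over the myotube arrays after scaling. The smallest was that of ASCRP4011090, 0.06.

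The remaining 4 of those 12 had bounds between 10 and 13-fold. ASCRP4001080 had 1.09, 1.81 and 2.28 in myoblasts and 71.2, 87.8 and 71.9 in myotubes, at least 12.02-fold higher. ASCRP4004461 had 0.935, 0.925 and 0.933 against 63.2, 76.1 and 76.4, at least 11.2-fold higher. ASCRP4002225 had 0.928, 0.982 and 0.957 against 46.3, 83.9 and 86.1, at least 10.9-fold higher. ASCRP4012414 had 0.906, 0.955 and 0.956 against 60.8, 69.8 and 65.9, at least 10.3-fold higher. For the last 3 every myoblast value lay under 1 unit. Their background-subtracted signals there ran from -1.70 to 1.03 units. Processed values this low do not follow them and are not measured levels. The myoblast signals of all 12 probes lay under the lowest signal well above background on their array, so each of the 12 bounds rests on that floor of the myoblast arrays and not on a measured myoblast level. None of the 12 was saturated. The groups were separate for each, which the rule sets for the background-subtracted signal of every member.

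Most clear gains were far smaller than these. Of the 105, 73 had a bound between 2 and 4-fold, 18 between 4 and 8-fold, 8 between 8 and 16-fold and 6 of 16-fold or more, with a median of 2.91-fold. Their processed signals ran from 7.38 to 128 on the array of myotube 1, from 10.6 to 226 on that of myotube 2 and from 13.4 to 217 on that of myotube 3. In myoblasts they ran from 0.875 to 6.01. A background-subtracted signal of at least 2 times the limit on every myotube array was found for 98 of the 105, and 13 stayed at or under 0.2 of the limit on every myoblast array.

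Agreement among the myotube arrays varied widely within the clear gains. ASCRP4009236 was the most even after scaling, with an SD of 0.03 on the log2 scale. Its processed signals were 4.25, 3.17 and 4.61 in myoblasts and 14.2, 20.5 and 20.3 in myotubes, at least 2.82-fold higher. ASCRP4014218 was nearly as even, with an SD of 0.03, and had 3.05, 1.22 and 2.60 against 27.7, 37.9 and 39.2, at least 5.42-fold higher. The least even were ASCRP4000394 and ASCRP4006087, and their myotube arrays went opposite ways. ASCRP4000394 had 2.16, 4.69 and 2.24 in myoblasts and 26.0, 10.6 and 16.4 in myotubes, so the array of myotube 1 was the bright one (SD 0.92). Its bound was at least 2.54-fold, and 5.08-fold from myotube 1 alone. Without the array of myotube 1 it was 1.79-fold, under the 2-fold needed for a clear gain. ASCRP4006087 had 3.66, 5.82 and 3.97 against 18.2, 79.0 and 62.7, so the array of myotube 1 was the dim one (SD 0.84). Its bound was at least 6.40-fold, and 3.31-fold from myotube 1 alone.

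The member at the median bound was brighter in myoblasts than most of the set. ASCRP4001867 had 4.70, 3.99 and 4.58 in myoblasts and 5.76, 11.8 and 11.5 in myotubes, a bound of at least 1.40-fold. Its myoblast values lay above the upper quartile of the set on each myoblast array, which was 3.74, 3.88 and 3.36. Its myotube 1 value lay closer to the myoblast values than to the other myotube values. Its net median signals were 8, 5 and 8 units against 12, 15 and 12.

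A margin of a few units separated the groups for most probes. The gap between the lowest myotube and the highest myoblast background-subtracted signal had a median of 3.56 units. It was under 1 unit for 35 probes and under 2 units for 120. The lowest myotube signal was under 1.2 times the limit in 173 probes, and the highest myoblast signal was over 0.8 of the limit in 189. Both held for 61. After scaling, 418 of the 504 had groups that did not overlap, beside 26.7% of the 9085 probes with the myotube arrays all higher. At the other end, 36 probes had at least 2 times the limit on every myotube array together with at most 0.5 of it on every myoblast array.

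The probes just inside the rule were set apart by fractions of a unit. Given as background-subtracted signals, ASCRP4005175 passed with 5.01 on the array of myotube 1, ASCRP4006514 with 5.01 on that of myotube 2 and ASCRP4002216 with 5.02 on that of myotube 1. From below, ASCRP4010505 reached 4.99 on the array of myoblast 1, ASCRP4005940 reached 4.97 on that of myoblast 2 and ASCRP4003873 reached 4.97 on that of myoblast 1. ASCRP4010505 had 4.99, 4.66 and 4.67 units in myoblasts and 7.59, 11.3 and 12.3 in myotubes. It therefore had a myoblast signal on all 3 arrays that was only just short of the flag.

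Other probes fell just outside with values of the same kind. ASCRP4013726 had 5.00 units on the array of myoblast 2, ASCRP4010818 had 5.01 on that of myoblast 1 and ASCRP4004393 had 5.03 on that of myoblast 1, and each was flagged there. ASCRP4013726 had 2.09, 5.00 and 3.98 in myoblasts and 9.28, 13.5 and 20.2 in myotubes, a wider separation than in any of the 6 probes just inside. On the myotube side, ASCRP4012313 missed with 4.99 on the array of myotube 1, ASCRP4002059 with 4.99 on that of myotube 1 and ASCRP4002627 with 4.99 on that of myotube 3. Beside the 504 members, 382 probes were above the limit on all 3 myotube arrays and 1 myoblast array, and 476 on 2 myotube arrays and no myoblast array.

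Signal under the limit was common in myoblasts. A positive and significant signal was flagged on all 3 myoblast arrays for 339 of the 504, on 2 for 103, on 1 for 43 and on none for 19. Among the 105 clear gains the numbers were 55, 25, 12 and 13. A background-subtracted signal at or below 0 was found for 20, 25 and 23 of the 504 on the arrays of myoblasts 1, 2 and 3. The processed signal of the set was never under 0.875 on these arrays. Its lowest values are therefore not measured levels, and they entered the correlations and the fit as they stand. The ratio of the processed signal to the error the software gives for it had a median of 2.27 to 2.66 in myoblasts and of 6.02 to 7.29 in myotubes.

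Probes of the set were found mainly among the dim probes of myotubes. Of the 955 circRNA probes above the limit on all 3 myotube arrays with a mean myotube signal under 10 units, 284 (29.7%) belonged to the set, and none of the 284 was a clear gain. Between 10 and 20 units it was 170 of 2022 (8.41%), 56 of them clear gains. Between 20 and 50 units it was 35 of 2626 (1.33%), and between 50 and 100 units 8 of 1421 (0.563%). Above 100 units it was 7 of 2061 (0.340%). All but 1 of the 50 members of 20 units or more were clear gains. The brightest member ranked 1179 by mean myotube signal among the 9085 probes, and 28 of the 504 lay in their brighter 50%.

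The order of the probes by brightness was shared within a state and not across states. Over the 504 probes, which share arrays and are not independent, Spearman correlations of processed signal were 0.598 to 0.754 between myotube arrays. Between myoblast arrays, where all background-subtracted signals are under the limit, they were 0.462 to 0.504. Across the states they lay between -0.101 and -0.00159. The rule keeps only values above the limit on one side and below it on the other, which narrows the range in both.

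Myotube 1 differed from the other myotube arrays in brightness and in place. The barcode in the file header was read here as array row and column. On that reading the 3 myoblast arrays and myotube 1 lay in array row 1 and myotubes 2 and 3 in array row 2. Before scaling, the array of myotube 1 was the lowest of the 3 for 341 of the 504 probes (67.7%), and for 84.7% of the 7717 circRNA probes above the limit on all 6 arrays. After scaling it was the lowest for 123 of the 504 (24.4%), and for 33.0% of those 7717. The array of myotube 2 was then the lowest most often, for 222 (44.0%). From myotube 1 alone, the array in the row of the myoblast arrays, the median bound was 1.49-fold. It was 1.30-fold from myotube 2 and 1.44-fold from myotube 3. Of the 105 clear gains, 96 kept a bound of at least 2-fold from myotube 1 alone, 94 from myotube 2 and 99 from myotube 3.

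The make-up of the set depended on myotube 1, the dimmest myotube array. Without it the rule would take 872 probes, and without any other single array 542 to 697. Leaving out an array can only raise the count, since the rule then has fewer arrays to meet. The spread over the 3 myotube arrays was slightly larger in the set than in probes of like brightness. Between 7.39 and 13.0 units of mean myotube signal, the median SD of scaled log2 signal was 0.31 in 252 members and 0.26 in 689 probes above the limit on all 6 arrays. Over the whole classes, at any brightness, the median SD was 0.25 among clear gains and 0.29 near the limit. The classes differ in brightness, so these 2 values are not a like comparison.

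With a common limit on the scaled signal for all 6 arrays, the number of probes above it in myotubes alone was 263. That limit was 15.1% of the 75th percentile, found by taking from each array the lowest scaled signal with the flag and using the highest of the 6. Of these 263, 234 (89.0%) were among the 504, of which they make 46.4%. They held 98 of the 105 clear gains. The reverse pattern, above the limit on all myoblast arrays and no myotube array, was shown by 48 probes under the flag and by 126 under the common limit. Under the flag the 48 had bounds with a median of 3.28-fold, and 42 of them (87.5%) reached 2-fold, against 1.40-fold and 23.6% in the 504. Both sets were made by detection in this contrast, so the difference between them was not tested.

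Detrending by the software moved some probes across the limit after the flag had been set. Among spots with a background-subtracted signal over 20 units, the processed signal was 0.843 to 1.78 times the background-subtracted signal on the arrays of row 1, depending on place, and 0.944 to 1.12 times on the array of myotube 3. On the array of myotube 2 no factor had been applied. As a result 37 of the 504 had a processed signal over 5 units on a myoblast array and 24 had one of 5 units or less on a myotube array, and in 2 the processed signals of the groups overlapped. With 5 units of processed signal as the limit, 491 probes would show the pattern, 444 of them among the 504.

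The authors' deposited log2 values held all 504 probes among 11128. Their median over the 504 was 4.62, 4.62 and 4.66 in myoblasts and 4.98, 4.91 and 4.91 in myotubes, where the medians of all deposited probes were 5.57 to 5.59. The median difference was 0.31, with quartiles of 0.17 and 0.51. It was at least 1 for 44 of the 504, beside 3.27% of all deposited probes, and 43 of these 44 were clear gains. The difference was below 0 for 18. Clear gains had a median difference of 0.86 and probes near the limit one of 0.19. ASCRP4010520 stood highest with 3.45.

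In the limma fit over all 9348 circRNA probes that could be tested, 380 of the 504 were past an adjusted p of 0.05 and higher in myotubes, beside 19.1% of the probes tested. None was lower. The count held all 105 clear gains, 103 of the 111 probes between and 172 of the 288 near the limit. The rule used this contrast, so the count supports nothing. After normexp background correction with an offset of 50 units it was 40, with 1 probe called lower, and 39 of the 40 were clear gains. The median fitted log2 difference of the 504 was then -0.085, against 1.39 in the main setting, and that of all tested probes was -0.092. With array row as a block it was 253, 102 of them clear gains.

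Properties the rule had not used were spread much as over the whole design. The identifiers run without a gap, and the share of members in each of 10 equal stretches of them lay between 2.88% and 4.56%. A member was followed by another member at the next identifier in 18 cases (3.57%), beside 3.54% of all circRNA probes. Of the 105 clear gains 1 was followed by another at the next identifier (0.952%), where clear gains are 0.738% of all circRNA probes. These were ASCRP4009672 and ASCRP4009673, which ranked 2 and 7 by bound. Their spots lay apart on the array, in row 118, column 29 and in row 90, column 47. Both were brightest on the array of myotube 2 before scaling and brightest on that of myotube 1 after it. Whether other consecutive pairs share such an order of the arrays was not examined. Over 4264 consecutive pairs of probes above the limit on all 6 arrays, the correlation of the log2 difference was 0.0148 and that of the log2 level 0.0315.

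Place on the array was also close to even. Over 16 sectors of the array the share of members lay between 2.29% and 5.04%. By the detrending factor of row 1, in 4 bins from the lowest to the highest, it was 3.03%, 3.56%, 4.08% and 3.52%, and for clear gains 0.757%, 0.678%, 0.759% and 0.756%. No spot of the 504 carried an outlier flag on any array, where 34 of all circRNA probes did. Spots of the set were slightly narrower than usual on the myotube arrays, with medians of 47.9 to 49.2 units against 49.5 to 49.8 over all circRNA probes. On the myoblast arrays they were wider, 57.5 units against 53.8 to 54.1. The rule made the set dim on those arrays, and widths of equally dim probes were not compared.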

How the data were processed

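Single-colour (Cy3) scanner tables of 6 arrays, 3 of myoblasts and 3 of myotubes, were used. Per the file headers, the software was Agilent Feature Extraction, version 11.0.1.1. The deposited processed, background-subtracted and spot signals are intensities on a linear scale, not scaled between arrays, per the file headers. The authors' deposited value table holds log2 values, and how its array distributions were made alike, like any removal of linear RNA, was not given in the sources used here. Headers name the build mm9, and no coordinates are given.

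Members were found from the well-above-background flags as deposited. The processed signal was taken as log2 minus the 75th percentile of each array over non-control probes, with outlier spots left out. A common change of most circRNAs would not appear in such values. The fit over all circRNA probes above background on all 3 arrays of a group was made in R 4.3.3 with limma 3.58.1 (lmFit, eBayes), without outlier spots. Its p-values were 2-sided and adjusted by Benjamini-Hochberg, and 0.05 was the threshold. The fit was also run on simulated normal values without a detection limit. That run does not cover probes near the limit. Other values came from Python 3.11.15 with pandas 2.3.3. For normexp the median spot signal was used in place of the mean, which the files used here do not hold. The lists of host genes set up for the probes were not used, since the files used here name no host genes. Gene probes were named through a RefSeq table of assembly GRCm38.p6, which matched 44 of 50.

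The members, the marker genes, the classes and the rule for named probes were chosen with earlier results of these data known. The rule named the 12 clear gains with the greatest bounds, the member at the median bound, the 2 clear gains with the most and the 2 with the least even myotube signals, and 6 probes just inside and 6 just outside the rule. With 3 arrays a group, their number limits the precision. P-values measure the spread between these arrays.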

Additional observations from a re-analysis of the deposited data

How the results depend on the processing

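The count of 504 rested on the detection rule. It was 282 with the flag for a positive and significant signal, and only 19 of the 504 are among these 282, so the sets differ. It was 263 with a common limit on the scaled signal, 980 with at least 2 myotube arrays required and 886 with 1 myoblast array allowed. It stayed at 504 without outlier spots and was 491 with the limit on the processed signal, a setting chosen after seeing the data. Without each array in turn it ran from 542 to 872, where a count under 504 could not arise. The 105 clear gains stayed within 1.5 times in 5 of 6 settings, with 32 at a bound of 4-fold, and ran from 103 to 124 without each array. The median bound of 1.40-fold was 2.03-fold without scaling and 1.64-fold from net median signals, and ran from 1.33 to 1.48 without each array. With other scaling or fewer arrays, the bounds of the 23 named members were 0.52 to 2.0 times those reported. Both ends came from myotube 1 alone, in ASCRP4006087 and ASCRP4000394. Without scaling these bounds were 1.45 times those reported. The number past the threshold of limma was 380. It was 40 after normexp correction, 198 with the deposited values and 253 with array row as a block, where myotube 1 alone gives the difference. The median fitted log2 difference was -0.085 after normexp correction, which adds 50 units to every signal; the median processed signal of the set was 7.59 to 10.6 in myotubes. Without each array the number ran from 312 to 358. With the replicate number as a block it was 394. Deviations of same-numbered arrays correlated at -0.038, 0.033 and -0.116, and those of differently numbered arrays at -0.153 to 0.208. Whether the numbers pair the arrays cannot be told from these values. In myotubes the processed signal of the set was a median of 6.02 to 7.29 times the error given by the software, which limits the precision of each value.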
